A study of Mus musculus with 9 samples.

Results

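In a set of whole-brain RNA-seq libraries from diabetic mice, the transcripts of the hindbrain and spinal cord were abundant in some libraries and close to absent in the rest. The members were chosen by the raw count of Hoxb5 in the 6 diabetic libraries of 9 in all. Hoxb5 is a homeobox gene of the caudal hindbrain and spinal cord, and 3 libraries held 100 counts or more (DNP 1, BAC 1 and BAC 3, here called Hoxb5-rich) and 3 held fewer (DNP 2, DNP 3 and BAC 2, here called Hoxb5-poor). The Hoxb5 counts were 232, 747 and 1000 in the Hoxb5-rich libraries and 0 in each Hoxb5-poor library, so that the values nearest to the limit on either side were 232 and 0. Since these measured values chose the libraries, every difference between the 2 classes is given as a description, without a test.

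Each library was made from poly(A) RNA of 1 male C57BL/6 mouse, 7 weeks old at the start, and all 9 are labelled whole brain. Diabetes with neuropathic pain was induced in the 3 DNP and 3 BAC mice by 4 weeks on food of 60% fat followed by 7 daily injections of 50 mg/kg streptozotocin, which destroys insulin-producing cells. The BAC mice were also given baclofen, which activates the GABA-B receptor, in 7 daily doses of 8 mg/kg, whereas DNP mice and the 3 non-diabetic CON mice received saline. Each class thus holds diabetic mice with and without baclofen, in unequal numbers: 1 DNP and 2 BAC mice in the Hoxb5-rich class, and 2 DNP and 1 BAC mice in the Hoxb5-poor class. The model was induced by diet and toxin and involves no transgene.

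Hox genes encode transcription factors that lie in clusters and are switched on in order along the body axis, so that low-numbered paralogue groups reach up into the hindbrain and higher-numbered groups start further down the spinal cord. The forebrain and midbrain lack them. In the hindbrain and cord, other homeobox factors mark classes of neurons, and inhibitory neurons there often release glycine, whereas inhibition in the forebrain rests mainly on GABA. Dlx and Tbr1 factors, the dopamine receptors of the striatum and the synaptic proteins of cortical pyramidal cells mark the forebrain. In bulk tissue, fewer cells of a type and less RNA per cell cannot be told apart.

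Library totals ranged from 13107382 to 16008129 counts, and the share of mitochondrial genes from 5.94% to 6.68% in the Hoxb5-rich and from 6.70% to 7.23% in the Hoxb5-poor libraries. That share did not overlap between the classes, and its part in the differences was not tested. Levels are given as raw counts per library or as CPM (counts scaled to library size after TMM normalization, mean ± SD, n = 3 libraries a class). A log2 difference is the mean log2 CPM of the Hoxb5-rich minus that of the Hoxb5-poor libraries, with its SE. CPM is a share of a library, so a larger share for some genes goes with a smaller share for others. Of the 18501 genes with enough counts to compare, 325 (1.76%) had a log2 difference above 2 and 366 (1.98%) had one below -2. The lower and upper quartiles of all genes were -0.34 and 0.34.

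Over all genes compared, 20.6% were higher in each Hoxb5-rich library than in any Hoxb5-poor library, and 21.6% were lower in each of them. Beside this background, which says nothing of the members since the rule used the same contrast, 14 of 38 Hox genes passed the count filter and those 14 were higher without overlap, as were 19 of 22 neuron-class transcription factors of the hindbrain and spinal cord, 16 of 18 cerebellar genes and 12 of 13 genes of large axons. In the opposite direction, 17 of 20 genes of cortical excitatory neurons and 17 of 20 striatal genes were lower without overlap. A gene near 0 in the other 6 libraries could pass the filter only with counts in all 3 Hoxb5-rich libraries. The counts and medians of the Hox genes and neuron-class factors that passed are therefore descriptions and no support. The same limit holds for genes of the other lists that were near 0 in those 6 libraries, such as Glra1. The lists were read by their median log2 difference, which was 5.99 for the Hox genes, 4.42 for the transcription factors, 3.42 for the cerebellum, -2.42 for the cortex and -2.85 for the striatum, beside a median of -0.0014 for all genes.

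**Figure D1:**
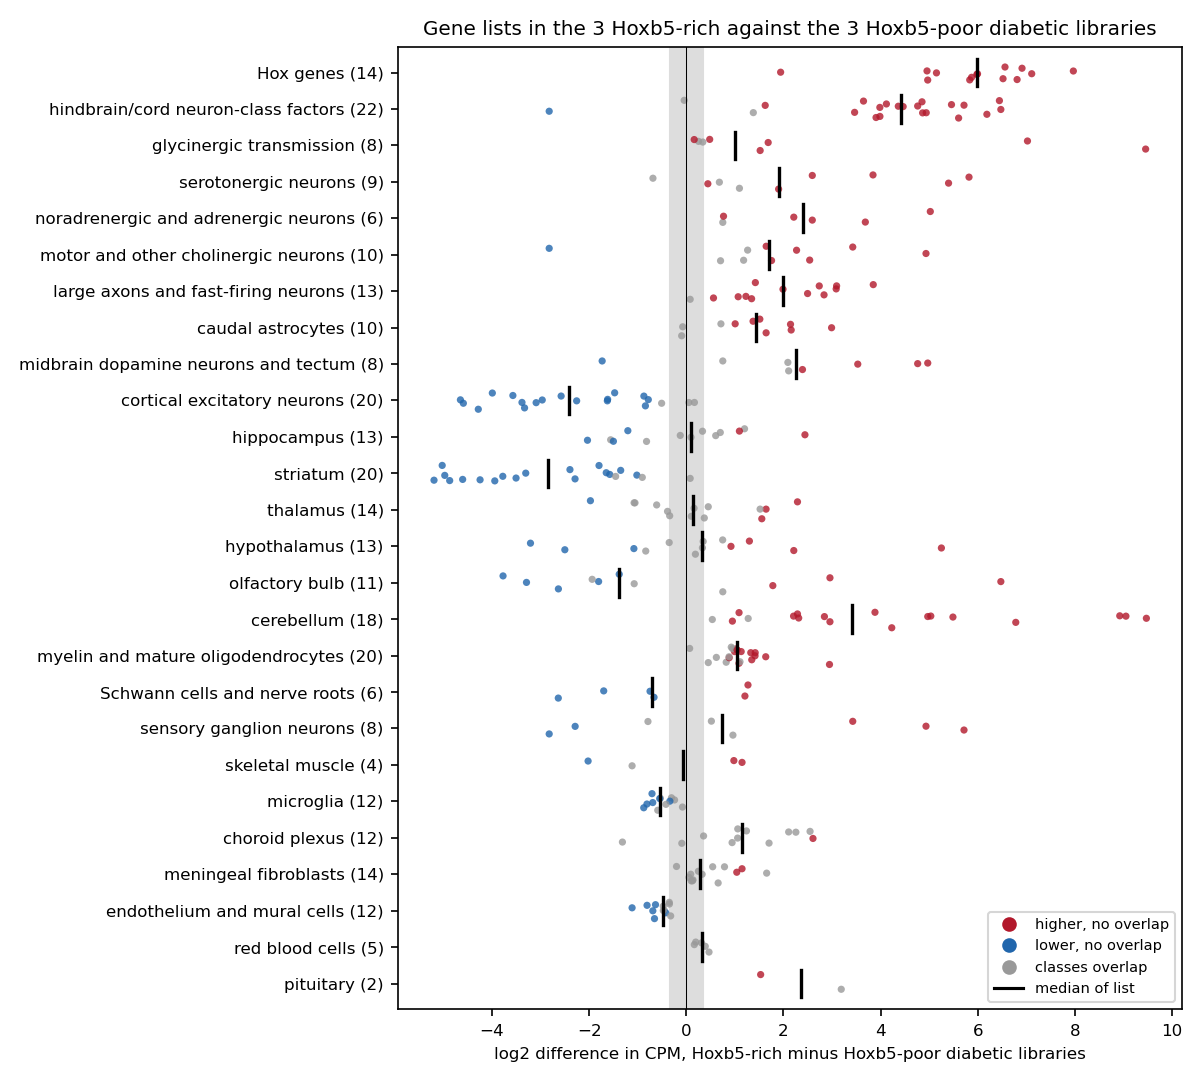
Log2 difference in CPM (x axis) for each gene of 26 lists (y axis, number of genes compared in brackets), Hoxb5-rich minus Hoxb5-poor diabetic libraries. Red and blue points are genes whose 2 classes do not overlap, grey points overlap, black bars are list medians and the grey band runs between the quartiles of all genes, -0.34 and 0.34. Hox genes and most neuron-class factors lie to the right of the band, except Isl1 (-2.82) and Gata2 (-0.042), and most cortical and striatal genes lie to its left, except Lamp5, Bhlhe22 and Scn4b within it.

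With Hoxb5 itself left out, the 10 genes with the largest positive differences among those of at least 1 mean CPM and without overlap were Fat2 (9.47), Slc6a5 (9.46), Gabra6 (9.05), Cbln3 (8.92), Cnpy1 (8.11), Hoxa5 (7.97), Dao (7.53), Hoxb3 (7.11), Glra1 (7.02) and Hoxb8 (6.91), in log2 units. Fat2, Gabra6 and Cbln3 are genes of cerebellar granule cells, Slc6a5 and Glra1 serve glycine transmission, and Dao encodes D-amino acid oxidase, an enzyme of hindbrain and cerebellar astrocytes. The 10 with the largest negative differences were Cd4 (-5.90), Dlx6 (-5.19), Dlx5 (-5.15), Chrm1 (-5.12), Lrrc10b (-5.02), Adora2a (-4.97), Ankrd63 (-4.90), Dlx1 (-4.87), Drd1 (-4.87) and Kcnh3 (-4.82). Dlx1, Dlx5 and Dlx6 are homeobox factors of forebrain GABA neurons, Adora2a and Drd1 encode receptors of striatal projection neurons, and Chrm1 encodes a muscarinic receptor of the cortex, hippocampus and striatum.

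A promoter each of Slc6a5, the glycinergic gene with the largest difference, and of Tbr1, the cortical factor with the largest negative difference of its list, are shown as reference sequence for the 2 poles of the contrast. They are taken from RefSeq promoters on GRCm38.p6 (250 bases before to 50 after the start site), and capitals mark TAATTA, a letter string that many homeobox proteins bind, searched on both strands (it reads the same on each).
Slc6a5, chr7:49910049-49910348, plus strand: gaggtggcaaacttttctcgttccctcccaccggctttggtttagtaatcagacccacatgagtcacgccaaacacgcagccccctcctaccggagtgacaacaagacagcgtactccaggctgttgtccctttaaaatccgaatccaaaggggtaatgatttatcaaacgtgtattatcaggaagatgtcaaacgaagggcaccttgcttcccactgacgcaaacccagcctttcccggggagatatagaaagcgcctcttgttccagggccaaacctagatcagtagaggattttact
Tbr1, chr2:61804203-61804502, plus strand: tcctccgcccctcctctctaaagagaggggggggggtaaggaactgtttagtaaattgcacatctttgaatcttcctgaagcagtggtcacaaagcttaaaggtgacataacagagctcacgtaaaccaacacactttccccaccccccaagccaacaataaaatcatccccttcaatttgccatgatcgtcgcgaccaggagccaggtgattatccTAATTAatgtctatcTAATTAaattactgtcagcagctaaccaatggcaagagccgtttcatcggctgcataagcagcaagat
The Tbr1 window held 2 matches and the Slc6a5 window none. RefSeq gives Slc6a5 another start site, with its promoter window at chr7:49911450-49911749, not printed, which held none either. TAATTA was present in 5.29% of 32851 promoters of 27025 genes. Among genes compared here, it was present in 2 of 20 promoters of the cortical list, 1 of 16 of the striatal list, 0 of 22 of the hindbrain and cord factors, 0 of 10 of the glycinergic list and 0 of 9 of the Hox genes. The string TGATTGAT, searched on both strands, was in 0.746% of all promoters and in 1 of the 9 Hox promoters, and TATAAA, searched the same way, was in 13.6% of all promoters and in 2 of those 9. A match is a string of letters and no measured binding.

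Apart from Hoxb5, 38 Hox genes were listed, of which 14 had enough counts to be compared and 24 did not. Over all 38, the summed CPM was higher in the Hoxb5-rich class in 26, lower in 2 and 0 in all 6 diabetic libraries in 10. Hoxa5 (chr6:52201754-52204587, GRCm38) had 182, 749 and 887 counts in DNP 1, BAC 1 and BAC 3 and 0 in each of the other 6 libraries. Its level was 41.2 ± 24.2 CPM in the Hoxb5-rich class, at least 203-fold higher than the Hoxb5-poor class, where a count of 0 allows up to 3 counts per library (a limit that covers counting error only). Hoxb3 (185, 251 and 435 counts), Hoxc4 (120, 276 and 324), Hoxa4 (125, 188 and 271) and Hoxd3 (141, 94 and 146) likewise had 0 counts in all Hoxb5-poor libraries. In 13 of the 14 genes the Hoxb5-poor libraries had no more than 3 counts each, and with these genes set at the bound for 3 counts the list median was 5.53 in place of 5.99. For such genes, here and in the other lists, the printed log2 difference depends on the prior count of 2 added before taking logs. Hoxd1, the exception, had 10, 10 and 16 counts against 1, 6 and 0, a log2 difference of 1.94 ± 0.59.

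The Hoxb5-rich libraries differed among themselves in how far along the Hox series the counts reached. Summed over a paralogue group without Hoxb5, groups 3, 4 and 5 had 402, 322 and 235 counts in DNP 1, 453, 688 and 915 in BAC 1 and 763, 864 and 1099 in BAC 3. Groups 6, 7 and 8 had only 43, 8 and 33 counts in DNP 1, whereas they had 463, 245 and 888 in BAC 1 and 538, 236 and 593 in BAC 3. Hoxb8 showed the same pattern, with 28, 848 and 535 counts in DNP 1, BAC 1 and BAC 3 (0, 0 and 0 in the Hoxb5-poor libraries), and so did Hoxb6 (34, 359 and 465) and Hoxb7 (1, 135 and 144). Without DNP 1, the log2 difference of Hoxb8 was 8.39 in place of 6.91 ± 1.49. Groups 9 to 13, which mark the lower cord, stayed at 10 counts or fewer in each library. The RNA of the Hoxb5-rich libraries therefore contained Hox transcripts of the hindbrain and upper levels of the cord, and DNP 1 had few of groups 6 to 8, which the rule had not used. The tissue label gives whole brain for these libraries as for the others.

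**Figure D2:**
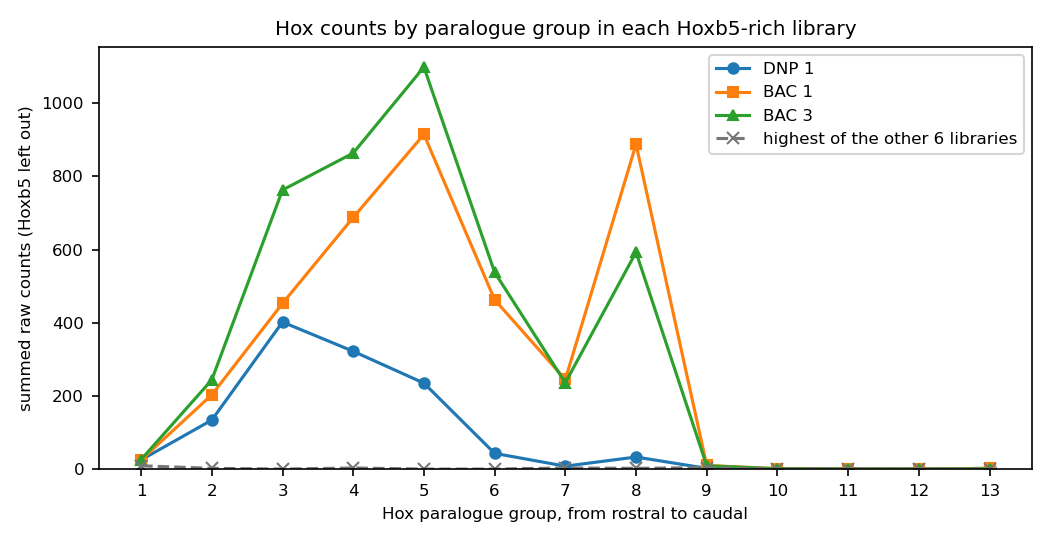
Raw counts (y axis) summed over each Hox paralogue group (x axis, rostral groups on the left, Hoxb5 left out) in the 3 Hoxb5-rich libraries, with the highest sum among the other 6 libraries as a dashed line. Groups 3 to 5 are present in all 3 libraries, groups 6 to 8 reach 236 to 888 counts in BAC 1 and BAC 3 and 8 to 43 in DNP 1, and groups 9 to 13 reach no more than 10.

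Of 28 neuron-class transcription factors of the hindbrain and spinal cord listed, 27 were in the table and 22 had enough counts. Among these, 19 were higher without overlap and 1, Isl1, was lower. The 5 that did not pass had a higher summed CPM in the Hoxb5-rich class, as had 26 of the 27, and with genes at 3 counts or fewer set at their bound the list median was 4.30 in place of 4.42. Pax8, a factor of dorsal inhibitory interneurons, had 85, 90 and 111 counts in DNP 1, BAC 1 and BAC 3 against 0 in each Hoxb5-poor library, and Evx1, a factor of commissural interneurons, had 57, 48 and 62 against 0. Both lay close together within the Hoxb5-rich class, with SEs of 0.052 and 0.069 on log2 differences of 5.61 and 4.85.

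Lbx1, which sets the identity of dorsal horn association neurons, had 184, 219 and 251 counts in the Hoxb5-rich and 0, 0 and 2 in the Hoxb5-poor libraries. Lmx1b, a factor of serotonergic and dorsal horn excitatory neurons, had 111, 153 and 236 against 8, 3 and 8. The libraries did not share all factors equally. Pou4f1, a factor of sensory neurons and of several brainstem nuclei, had 31 counts in DNP 1, 112 in BAC 1 and 447 in BAC 3, against 0, 1 and 0. Gata3, a factor of serotonergic and inhibitory neurons that did not pass the filter, had 105, 7 and 162 counts against 0, so that BAC 1 stood low. Gata2 and Tal1 overlapped between the classes (148, 49 and 174 against 138, 110 and 98 counts for Gata2). Isl1, a factor of motor neurons that is also expressed in the striatum, had 12, 12 and 20 counts against 110, 85 and 164 and a log2 difference of -2.82 ± 0.33. It was the only factor of the list lower without overlap.

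Of 8 glycinergic genes compared, all had a positive difference and 6 did not overlap, with a median of 1.00. Slc6a5 (chr7:49910146-49963856), the neuronal glycine transporter that marks glycinergic neurons, had 3974, 3064 and 2609 counts in the Hoxb5-rich libraries and 4, 2 and 2 in the Hoxb5-poor libraries. Its level was 225 ± 61.8 CPM against 0.181 ± 0.0799, and the lowest Hoxb5-rich library exceeded the highest Hoxb5-poor library by far. Glra1, the adult alpha subunit of the glycine receptor, had 406, 488 and 516 counts against 2, 0 and 4 (log2 difference 7.02 ± 0.47). Slc6a9, the glial glycine transporter, was 3.22-fold higher (174 ± 22.8 against 53.8 ± 7.31 CPM), and Glra3, another receptor subunit, was 2.91-fold higher. The shared parts of inhibitory synapses differed less. Glrb, the beta subunit that also anchors receptors elsewhere in the brain, had a log2 difference of 0.48 ± 0.17, gephyrin (Gphn) one of 0.16 ± 0.085, and Slc32a1, the vesicular transporter that loads both GABA and glycine, one of 0.34 ± 0.29 with overlapping classes.

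Serotonergic genes were also higher, but the Hoxb5-rich libraries were far apart. Of 9 genes, 6 were higher without overlap, with a median of 1.90. Tph2, the rate-limiting enzyme of serotonin synthesis in neurons, had 854 counts in DNP 1 and 1701 in BAC 3 but only 47 in BAC 1, against 5, 16 and 6 in the Hoxb5-poor libraries. Slc6a4, the serotonin transporter, followed the same order with 450, 19 and 1168 counts in DNP 1, BAC 1 and BAC 3 against 2, 2 and 2, and so did Fev, the factor of serotonergic identity (65, 8 and 101 against 2, 1 and 0). BAC 1 was thus low in serotonergic transcripts while its Hoxa5 and Slc6a5 counts resembled those of BAC 3. Without BAC 1, the log2 difference was 6.91 for Tph2 (from 5.40 ± 1.58) and 7.50 for Slc6a4 (from 5.82 ± 1.71). Slc18a2, the vesicular monoamine transporter, had 863, 152 and 1502 counts against 114, 90 and 89 and a log2 difference of 2.59 ± 0.95.

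Among the 6 noradrenergic and adrenergic genes compared, 5 were higher without overlap (median 2.40). Pnmt, the 1 of 7 listed genes that did not pass the count filter, had a lower summed CPM in the Hoxb5-rich class. Dbh, which converts dopamine to noradrenaline, had 143, 100 and 145 counts against 4, 10 and 13, and Slc6a2, the noradrenaline transporter, had 127, 21 and 89 against 0 in each Hoxb5-poor library. Maoa, which degrades monoamines, was 1.71-fold higher. Th, the tyrosine hydroxylase that dopamine neurons of the midbrain and olfactory bulb also express, overlapped, with 229, 185 and 707 counts against 821, 37 and 211. DNP 2, whose Th count was the highest of the 6, also had the highest count of the olfactory bulb gene Cdhr1 (1694). The sign of the Th difference changed when DNP 3 was left out, from 0.75 ± 1.39 to -0.41.

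Of 10 genes of motor and other cholinergic neurons, 6 were higher without overlap and Isl1 was lower, with a median of 1.70. Prph, the intermediate filament peripherin of motor and sensory neurons, had 456, 283 and 458 counts against 5, 27 and 9, a 30.1-fold difference in mean CPM. Calca, which encodes the peptide CGRP of motor and sensory neurons, had 197, 107 and 100 against 13, 12 and 7. The striatum also uses the genes that make and package acetylcholine. Slc18a3, the vesicular acetylcholine transporter, had 357, 196 and 328 counts against 72, 29 and 95 (log2 difference 2.27 ± 0.57), and Slc5a7, the choline transporter, had 532, 466 and 460 against 128, 72 and 331 (1.76 ± 0.66). Chat, the synthetic enzyme, had 178, 135 and 254 against 80, 41 and 162 with overlap (1.18 ± 0.61). Mnx1, a defining factor of somatic motor neurons, had 0, 7 and 4 counts in the Hoxb5-rich libraries and none in the others.

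Of 13 genes of large axons and fast-firing neurons, 12 were higher without overlap (median 1.99). Nefh, the heavy neurofilament subunit, was at 537 ± 153 CPM in the Hoxb5-rich and 64.6 ± 25.9 CPM in the Hoxb5-poor class, an 8.32-fold difference. The medium and light subunits Nefm and Nefl were 3.92-fold and 2.69-fold higher, and Vamp1, a synaptic vesicle protein of fast synapses, was 6.21-fold higher. Sncg, gamma-synuclein, abundant in motor and sensory neurons, had 809, 374 and 805 counts against 27, 61 and 46. Slc17a6, the vesicular glutamate transporter of subcortical neurons, was at 196 ± 42.1 against 29.6 ± 15.3 CPM, whereas Slc17a7, its counterpart in the cortex, was lower in the Hoxb5-rich class, at 281 ± 125 against 807 ± 41.5 CPM. Scn4b, a sodium channel subunit that the striatum also expresses strongly, was the member that overlapped (log2 difference 0.081 ± 0.28).

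Glial genes differed between the classes too. Of 10 genes of caudal astrocytes, 7 were higher without overlap (median 1.45). Agt, angiotensinogen, made by astrocytes of the brainstem and hypothalamus, had 2786, 1834 and 2979 counts against 147, 591 and 365, and Gfap, the astrocyte filament, had 5333, 7611 and 9342 against 2132, 3155 and 2581, a 2.88-fold difference in mean CPM. Sparc, a matrix protein of astrocytes, was 4.43-fold higher and the GABA transporter Slc6a11 was 2.60-fold higher. Slc1a3, a glutamate transporter of astrocytes in all regions, overlapped, with a log2 difference of -0.073 ± 0.38. All 20 myelin and oligodendrocyte genes had a positive difference and 12 did not overlap, with a median of 1.04. Klk6, a protease of oligodendrocytes in the cord and brainstem, had 611, 506 and 828 counts against 75, 193 and 38, a log2 difference of 2.95 ± 0.66. DNP 3 was the highest of the Hoxb5-poor libraries for this gene, below each Hoxb5-rich library.

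The midbrain and the cerebellum also differed between the classes. Cerebellar genes were positive in 18 of 18 cases and without overlap in 16. Gabra6, a receptor subunit of granule cells, had 432, 2808 and 954 counts in DNP 1, BAC 1 and BAC 3 and 0 in each Hoxb5-poor library. Cbln3, a granule cell synapse organiser, had 1462, 10479 and 3174 against 3, 8 and 7, and Pcp2, a Purkinje cell gene, had 406, 1122 and 623 against 3, 3 and 7. For all 3 genes BAC 1 was the highest of the diabetic libraries and DNP 1 the lowest of the Hoxb5-rich class. Calb1, which many other neurons also express, was 2.20-fold higher, and Itpr1, abundant in Purkinje cells and present elsewhere, overlapped (0.54 ± 0.59).

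Of 8 midbrain genes compared, 4 were higher without overlap and Nr4a2 was lower, with a median of 2.25. Slc6a3, the dopamine transporter, had 133, 2 and 898 counts against 65, 4 and 14, so that BAC 1 lay below every Hoxb5-poor library and BAC 3 far above the rest. Pax7, a factor of the tectum and dorsal cord that did not pass the filter, had 83, 0 and 67 counts against 0, again with none in BAC 1. En1, a factor of the midbrain and anterior hindbrain, had 79, 14 and 178 against 0, 1 and 0. Of Slc6a3, Pax7 and En1, BAC 1 thus had fewer counts than DNP 1 and BAC 3. The midbrain list as a whole was not low in BAC 1: the mean log2 deviation of the 8 genes from their mean over the 9 libraries was 0.57, above the Hoxb5-poor libraries (-0.81, -0.84 and -1.42). The level summed over all 13 genes of the list was 329 CPM in BAC 1 and 316 CPM in DNP 1. En2, whose log2 difference of 4.97 was the largest of this list, is also in the cerebellar list. CON 2, the highest library for the cerebellar list, stood at 0.70 and 445 CPM on the midbrain list. The part of cerebellar RNA in the BAC 1 value was not tested. Without BAC 1, the midbrain median was 3.27, and Slc6a3 had a log2 difference of 4.22 in place of 2.09 ± 2.47.

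**Figure D3:**
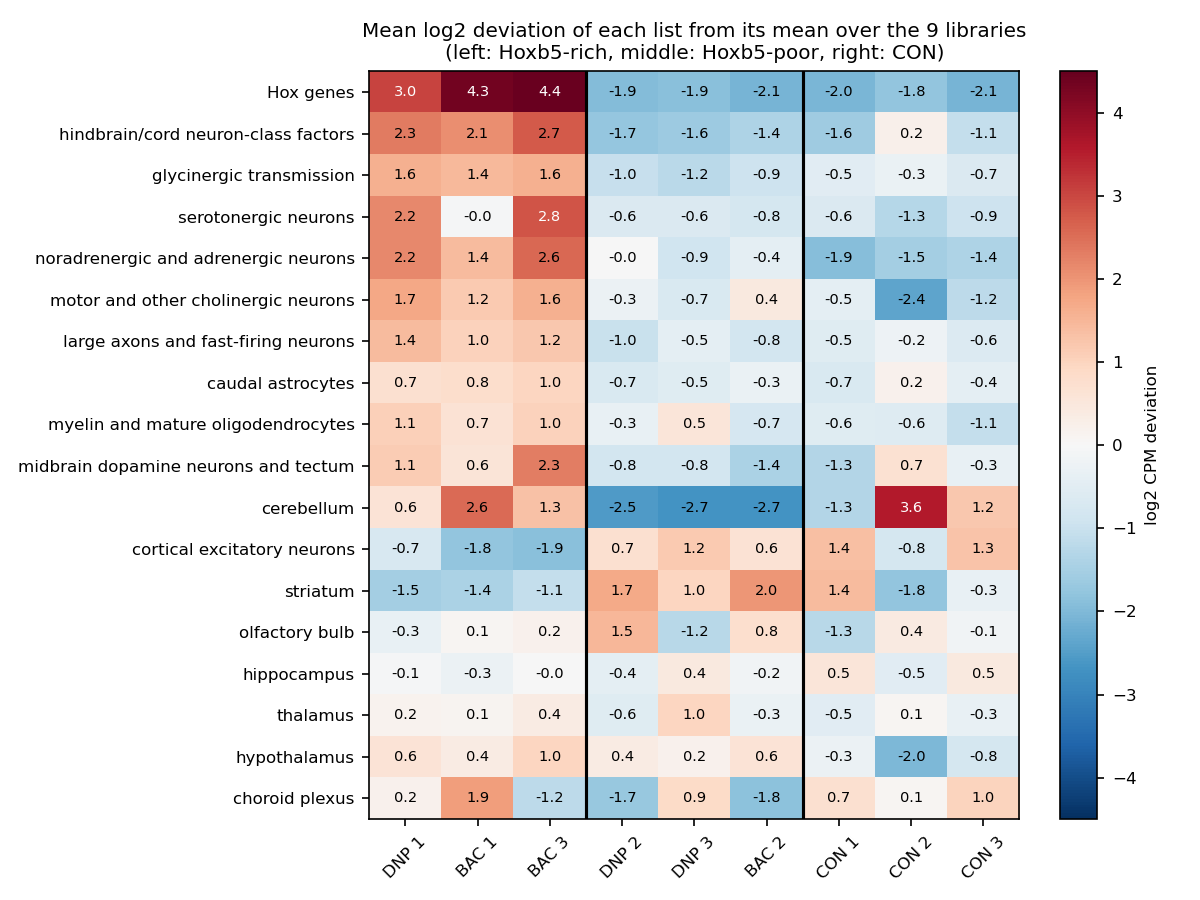
Mean log2 deviation of 18 gene lists (rows) from their own mean over the 9 libraries, for each library (columns), with the value printed in each cell and red above and blue below the mean. The Hox row reads 3.0 to 4.4 in the Hoxb5-rich and -2.1 to -1.9 in the Hoxb5-poor libraries. The cerebellum row is highest in CON 2 (3.6), and the serotonergic row of BAC 1 lies at the mean.

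Forebrain genes took the opposite direction. Of 20 genes of cortical excitatory neurons, 17 were lower without overlap and none was higher without overlap. Tbr1 (chr2:61802930-61814114), a factor of deep-layer pyramidal neurons, had 231, 29 and 29 counts in DNP 1, BAC 1 and BAC 3 and 1443, 1991 and 1316 in DNP 2, DNP 3 and BAC 2, a log2 difference of -4.65 ± 1.02. Fezf2, a factor of corticospinal neurons, had 40, 7 and 2 against 237, 468 and 107. In these 2 cortical factors, DNP 1 was the highest of the Hoxb5-rich libraries and yet below each Hoxb5-poor library.

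Abundant cortical transcripts followed. Camk2a, the alpha subunit of a calcium-dependent kinase of excitatory synapses, was at 266 ± 176 CPM against 2011 ± 436, and Nrgn, neurogranin, was at 82.5 ± 54.3 against 1171 ± 393 CPM. Mef2c, an activity-linked factor of cortical neurons, had 915, 255 and 218 counts against 2028, 6240 and 4442, and the peptide gene Cck had 577, 275 and 460 against 2709, 3420 and 1810. The 3 members that overlapped were Lamp5 (0.053 ± 0.32), Bhlhe22 (0.17 ± 0.26) and Neurod2 (-0.51 ± 0.36). Lamp5 and Bhlhe22 are also expressed in the hindbrain or dorsal horn, and Neurod2 in the cerebellum.

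The striatal list had the lowest median, -2.85. Drd1, the dopamine receptor of direct-pathway neurons, had 21, 23 and 21 counts against 772, 399 and 1137, and Adora2a, the adenosine receptor of indirect-pathway neurons, had 27, 33 and 40 against 1221, 635 and 1802. The Hoxb5-rich libraries lay close together, with an Adora2a mean at 2.75% of the Hoxb5-poor class. Ppp1r1b, which encodes the phosphatase inhibitor DARPP-32, was at 89.4 ± 9.72 against 484 ± 153 CPM. Drd2, which midbrain dopamine neurons also express, differed less, with 193, 182 and 413 counts against 931, 450 and 997 (log2 difference -1.58 ± 0.50). Six3, a factor of striatal neurons, was low in DNP 1 and BAC 1 but not as low in BAC 3 (7, 9 and 107 against 228, 314 and 399). Tac1 and Penk, peptide genes with expression in the brainstem and cord as well, had log2 differences of -1.45 ± 0.62 and -1.35 ± 0.46.

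**Figure D4:**
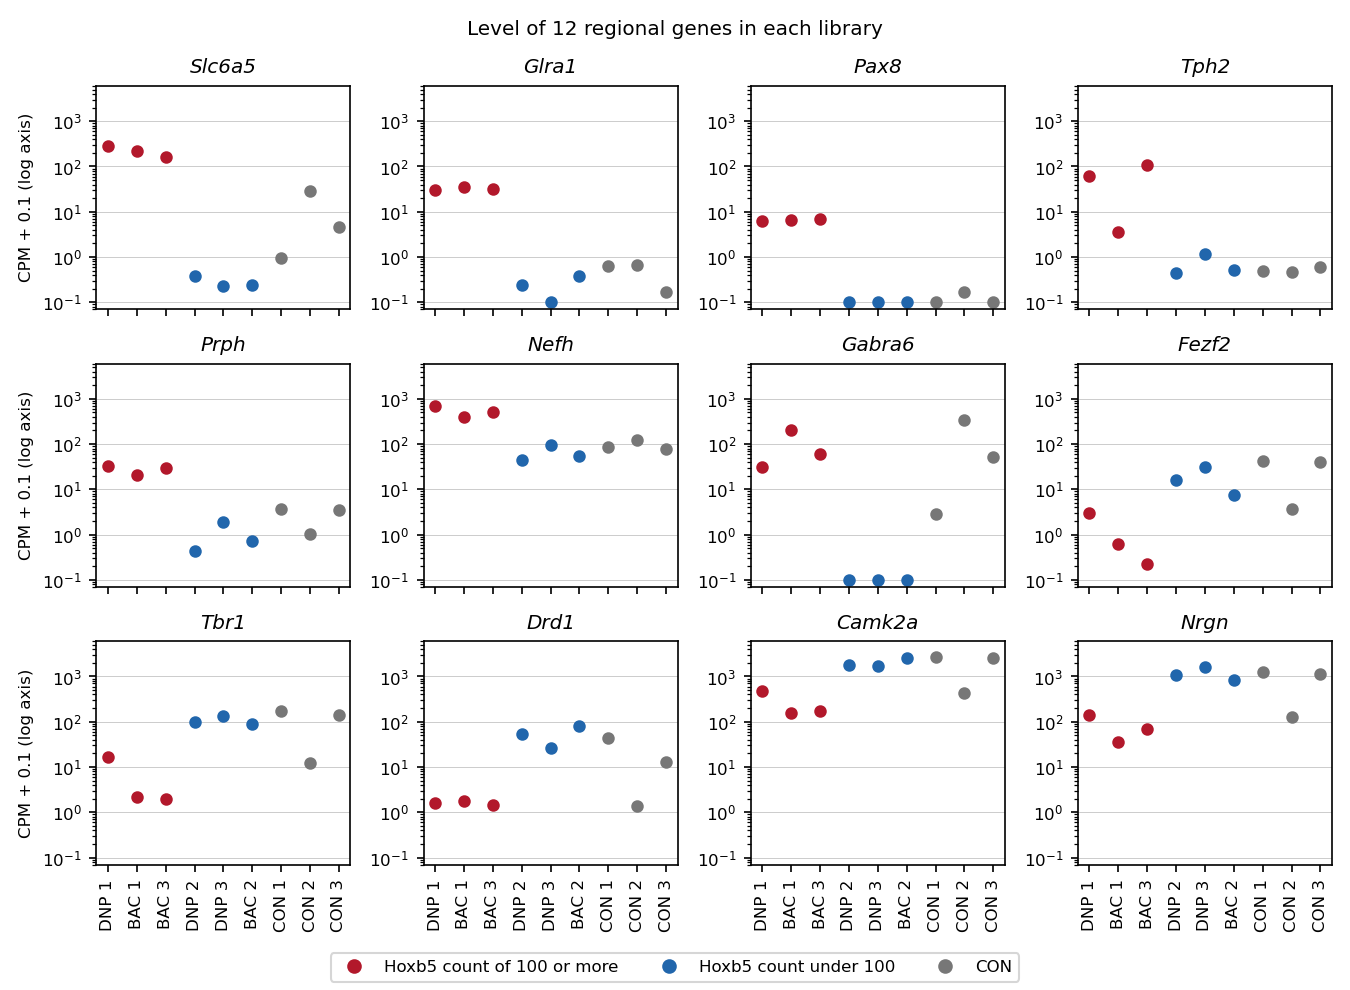
CPM + 0.1 on a log axis (y axis) of 12 regional genes in each of the 9 libraries (x axis), red for Hoxb5-rich, blue for Hoxb5-poor and grey for CON. From Slc6a5 to Gabra6 the red points lie above the blue points, and from Fezf2 to Nrgn they lie below. Tph2 shows BAC 1 well below DNP 1 and BAC 3, and Gabra6 is at 0 CPM in the 3 Hoxb5-poor libraries.

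Not all regions rostral to the hindbrain took 1 direction. In the olfactory bulb list, 5 of 11 genes were lower and 3 higher without overlap (median -1.38). Cdhr1, a cadherin of mitral cells, had 35, 28 and 61 counts against 1694, 63 and 629, so the Hoxb5-poor libraries were far apart with DNP 3 lowest. The members that were higher, Calb2, Barhl2 and Lhx1, are also expressed in the cerebellum, brainstem or cord. The hippocampal list had 2 higher and 3 lower of 13 (median 0.10), the thalamic list 3 higher and 1 lower of 14 (median 0.13) and the hypothalamic list 4 higher and 3 lower of 13 (median 0.33). These medians lay between the quartiles of all genes. Over all genes, 20.6% were higher and 21.6% lower without overlap, so the counts of these lists are not read as regional differences. In the hypothalamic list the factor Nkx2-1 had 3, 0 and 6 counts against 31, 39 and 45, whereas Otp, a factor that the hindbrain also expresses, had 384, 46 and 202 against 0, 7 and 2.

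Lists of neighbouring and non-neural tissues were read for comparison, beside the 20.6% of all genes higher and 21.6% lower without overlap. Microglial genes had a negative difference in 12 of 12 cases and were lower without overlap in 6 (median -0.54), and so had endothelial and mural genes (12 of 12, 6 without overlap, median -0.47). Choroid plexus genes were scattered by single libraries, with Ttr, the transthyretin of the plexus, at 4015, 15998 and 186 counts against 89, 20285 and 33. Only 1 of 12 choroid plexus genes did not overlap. Red blood cell genes had a median of 0.31 and meningeal genes one of 0.29. Of 8 sensory ganglion genes compared, 3 were higher and 2 lower without overlap, and the sensory neuron channel gene Scn10a had 3, 2 and 3 counts against 10, 32 and 28. Of 6 Schwann cell genes compared, 2 were higher and 4 lower without overlap. The lists of Schwann cells, sensory ganglia and skeletal muscle had medians of -0.70, 0.74 and -0.07, and of 2 pituitary genes with enough counts 1 was higher without overlap (median 2.36).

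The rule had not used the CON libraries, and they show the regional genes apart from diabetes. Hoxb5 had 0, 2 and 0 counts in CON 1, CON 2 and CON 3, and Hoxa5, Hoxb3 and Hoxc4 had 0 in all 3. CON 2 nonetheless had cerebellar transcripts and few forebrain transcripts. Gabra6 had 42, 4828 and 735 counts in CON 1, CON 2 and CON 3, and Cbln3 had 139, 20658 and 2641. Drd1 had 674, 18 and 180 counts and Tbr1 had 2537, 172 and 1994, with CON 2 the lowest in each. CON 2 therefore joined a low forebrain level to a near absence of Hox transcripts, a combination that none of the 6 diabetic libraries had.

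Genes of the contrast could be divided by their level in CON 2, with limits of 10% and 50% chosen after the values were seen. Of 310 genes with a log2 difference above 2 and no overlap, Hoxb5 among them, CON 2 was under 10% of the Hoxb5-rich mean in 82 (26.5%, Hoxb5 included) and at 50% or more in 163 (52.6%). In the median gene of the 310, CON 2 stood at 53.6% of that mean, and the mean of CON 1 and CON 3 at 19.5%. Glra1, Pax8, Evx1 and Slc6a4 were among those near 0 in CON 2, with 8, 1, 0 and 0 counts. Lbx1, Tlx3, Pax2 and Lhx1, which mark inhibitory or excitatory neurons of the cerebellum or pons as well as the cord, had 107, 203, 178 and 1062 counts there. Slc6a5 lay between, with 397 counts in CON 2. Of 348 genes with a log2 difference below -2 and no overlap, the median gene stood in CON 2 at 16.7% of the Hoxb5-poor mean and in CON 1 and CON 3 at 95.9%.

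**Figure D5:**
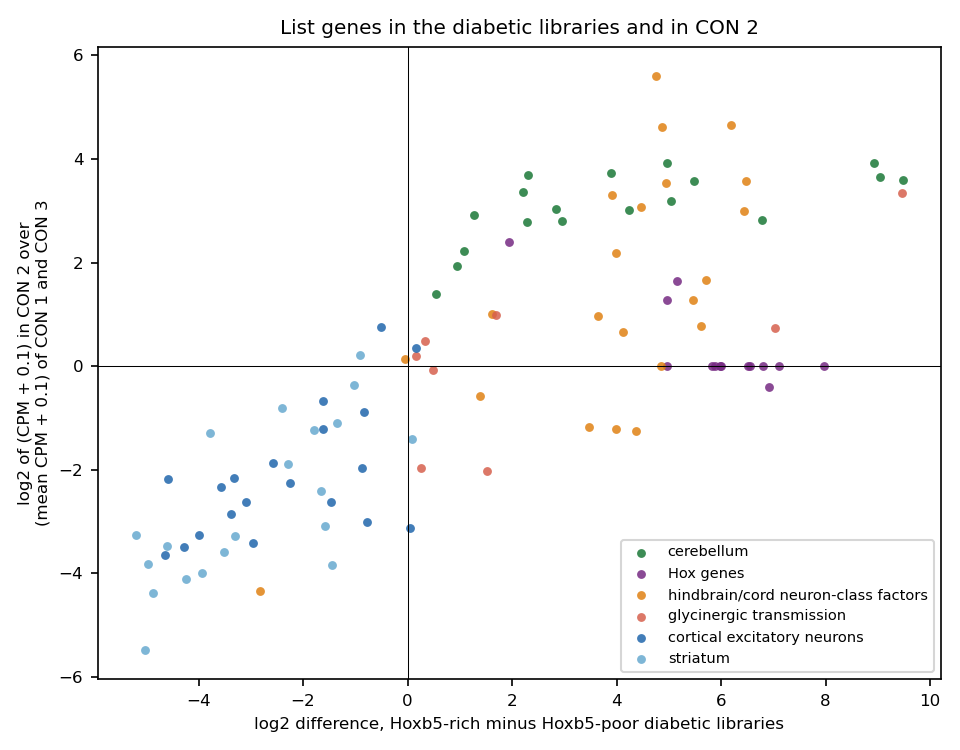
Each point is a gene of 6 lists, with its log2 difference between the Hoxb5-rich and Hoxb5-poor diabetic libraries (x axis) and the log2 ratio of CON 2 to the mean of CON 1 and CON 3, each CPM + 0.1 (y axis). Cerebellar genes are high on both axes and cortical and striatal genes mostly low on both, whereas most Hox genes are high on the x axis and at 0 on the y axis, where counts in CON are 0 or nearly so.

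The comparison of BAC with DNP asks what baclofen changed in diabetic mice, and it set 2 Hoxb5-rich libraries of 3 in BAC against 1 of 3 in DNP. With edgeR's quasi-likelihood test and Benjamini-Hochberg adjustment, 0 of 18501 genes (0%) passed an adjusted p of 0.05, and the lowest adjusted p was 0.998. Without adjustment, 438 genes (2.37%) had a p under 0.05. DESeq2 called 7 genes, Aebp1, Ap2s1, Bloc1s6, Mpzl2, Slc47a1, Styx and Ube2a. All 7 overlapped between the Hoxb5 classes, whereas 42.2% of all genes did not. Each class mixes DNP and BAC mice, so a gene that separates all BAC from all DNP libraries must overlap. The overlap therefore says nothing of the part of the class in these calls, which was not tested.

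No gene of the lists passed the adjusted threshold in BAC versus DNP. All 14 Hox genes compared had a positive fold change, as did 48.1% of all genes, with a median log2 fold change of 2.02, and 1 of them had an unadjusted p under 0.05. In 13 of them the Hoxb5-poor libraries had no more than 3 counts each, and BAC held more Hoxb5-rich libraries than DNP. Their sign was thus largely set by the rule and the filter, and is a description and no support. The Slc6a5 fold change was 0.43 ± 2.32 (SE) and that of Nrgn was -1.58 ± 1.32, each with an edgeR adjusted p of 0.998. The cerebellar list had a median of 1.93 with 18 of 18 positive, and the cortical list one of -0.92 with 19 of 20 negative. The medians of the Hox, cerebellar and cortical lists had the sign of their difference between the classes, without a gene that passed the test. Between the classes, 16 of the 18 cerebellar and 17 of the 20 cortical genes did not overlap. With more Hoxb5-rich libraries in BAC than in DNP, the signs of these lists are not independent of the classes. They are a description and no support. Not all lists followed in size or sign. The striatal median was -0.079 with 8 of 20 positive, beside -2.85 between the classes. The myelin median was -0.024 beside 1.04, and the thalamic median -0.42 beside 0.13.

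The Hoxb5 class was added as a term in a fit on the 6 diabetic libraries alone, with the count filter redone. There, 0 of 18011 genes (0%) passed in edgeR, with a lowest adjusted p of 0.817, and 718 (3.99%) had an unadjusted p under 0.05. The same 6 libraries and the same genes without the term gave 440 genes at an unadjusted edgeR p under 0.05. The median SE of the log2 fold change was 0.293 in the fit on 9 libraries and 0.209 in the fit with the term. Libraries and genes differed between the fits that gave these SEs as well, and the part of the term was not tested. In the fit with the term, the median BAC versus DNP fold change was 1.00 for the Hox genes, 0.15 for the neuron-class factors and 0.84 for the cerebellum. It was -0.59 for the cortex and 0.53 for the striatum. In the test without the class term and with CON kept, the number of genes at an unadjusted p under 0.05, 438 with all libraries, rested on single libraries. With the filter redone, it was 1390 without DNP 1 and 1484 without BAC 2. It was 350, 216, 223 and 392 without DNP 2, DNP 3, BAC 1 and BAC 3. DNP 1 and BAC 2 were the mice in the minority class of their group, and the part of the class in these numbers was not tested. No gene passed the adjusted threshold in any of these 6 fits.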

How the data were processed

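Conditions were taken from the sample labels. Per the labels and methods, the authors checked the paired-end, non-strand-specific reads with FastQC 0.11.9, filtered them with fastp, removed ribosomal reads, used Bowtie2 2.3.4.1 in a step related to alignment, aligned the reads to GRCm38 with HISAT2 2.1.0 and quantified genes with StringTie 1.3.3b. One deposited table holds raw counts for each gene, and another holds FPKM values, used only as an alternative. How reads matching several genes were counted is not given in the sources used here, so near-identical copies and overlapping genes are uncertain.

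Counts were analysed in R 4.3.3 with edgeR 4.0.16. The filter filterByExpr (minimum count 10) kept 18501 of 53465 genes, and TMM-scaled log2 CPM used a prior count of 2. Classes were described by log2 difference and overlap. BAC versus DNP was tested by edgeR's quasi-likelihood test on the 9 libraries, with a Benjamini-Hochberg adjusted p of 0.05 as the threshold, and with DESeq2 1.42.0 as an alternative. The fit with the Hoxb5 class as a term used only the 6 diabetic libraries. The script was tested on simulated data. The libraries, classes and 26 lists (356 genes) were chosen with earlier results of these data known. Genes named were list members, the 10 highest and 10 lowest differences, and further glial, synaptic and inflammatory genes chosen after their values were seen. Some genes that this rule names are not reported here. Other alternatives were scaling, filter, prior count, FPKM pseudocounts of 0.1 and 1, a treatment term, a block for replicate number, and leaving out each library. P-values rest on 3 mice a group. Totals of 13107382 to 16008129 counts set the precision.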

Additional observations from a re-analysis of the deposited data

How the results depend on the processing

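Of 115 genes named or ranked, each under 13 alternative settings, 110 kept the sign of their difference between the classes. The 5 whose sign changed when a library was left out, Th, Scn4b, Slc1a3, Lamp5 and Bhlhe22, all overlapped between the classes. Of 1495 values, 106 moved by more than the spread between libraries. Adding a pseudocount to FPKM lowered the medians of weakly expressed lists. With 0.1 FPKM the median was 4.67 for the Hox genes and 3.57 for the neuron-class factors. With 1 FPKM it was 1.91 for the Hox genes, 1.301 for the neuron-class factors, 0.742 for the glycinergic, 1.32 for the noradrenergic, 1.14 for the cholinergic, 1.24 for the midbrain, -1.65 for the cortical, -1.48 for the striatal, 2.37 for the cerebellar, -0.195 for the Schwann cell and 0.150 for the sensory ganglion list. With no count filter it was 4.04 for the Hox genes, 4.13 for the neuron-class factors, 0.509 for the glycinergic, -0.962 for the Schwann cell, 0.490 for the sensory ganglion and 0.684 for the pituitary list, as more genes entered. With a prior count of 0.5 it was 7.97 for the Hox genes and 5.34 for the neuron-class factors.

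With each diabetic library left out in turn, the medians ranged from 0.57 to 1.03 for the sensory ganglion, 1.10 to 2.33 for the cholinergic, 1.81 to 2.25 for the large-axon, 2.16 to 3.27 for the midbrain, -0.46 to 0.39 for the muscle and 4.10 to 4.61 for the neuron-class list. They ranged from 1.38 to 2.57 for the serotonergic, 2.82 to 3.81 for the cerebellar, -1.91 to -0.89 for the olfactory bulb, 0.62 to 2.04 for the choroid plexus, 0.15 to 0.54 for the hypothalamic, 0.17 to 0.49 for the red cell, 1.87 to 3.19 for the pituitary and 0.082 to 0.58 for the meningeal list. The highest cholinergic value came without BAC 2 and the lowest without DNP 3. The signs of the muscle, thalamic and hippocampal medians also changed with settings, and no direction is given for them. In BAC versus DNP, DESeq2 called 7 genes (548 at an unadjusted p under 0.05) against 0 in edgeR. Same-numbered DNP and BAC libraries deviated together in 2 of 3 pairs (r = 0.50, 0.56 and -0.31 across genes). Differently numbered pairs of the same Hoxb5 class also did, DNP 1 with BAC 3 (0.57) and DNP 3 with BAC 2 (0.38). All pairs of unlike class had a negative r, so these values cannot show whether the numbers paired the mice. A fit with the replicate block called 0 genes, with 382 at an unadjusted edgeR p under 0.05.

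Another scaling moved the median of all genes by no more than 0.04, and the share of higher genes among those without overlap was 48.7% after TMM and 54.3% with library totals only. With 3 libraries a class, 1 mouse each and no record here of how each brain was cut, the class and the individual mouse cannot be told apart. Genes at 3 counts or fewer in the Hoxb5-poor libraries are limited by depth, and the prior count sets the size of their log2 difference, which is no bound.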

Other observations

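Further glial, inflammatory and synaptic genes were also placed by class, chosen after their values were seen and without a test. C3, the central complement component, had 67, 114 and 105 counts in DNP 1, BAC 1 and BAC 3 and 14, 13 and 5 in DNP 2, DNP 3 and BAC 2, a log2 difference of 3.03 ± 0.43 with no overlap, and 10, 4 and 6 in CON 1, CON 2 and CON 3. Aif1, which encodes the microglial protein Iba1, had 53, 35 and 44 against 75, 73 and 73 and was lower without overlap, so that these 2 glial genes took opposite directions. Lcn2, a secreted acute-phase protein, overlapped (107, 31 and 15 against 64, 31 and 38), as did Nfkbia, the inhibitor of NF-kappa-B (-0.13 ± 0.25).

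Among synaptic genes, Syt1, the calcium sensor of vesicle release, was lower without overlap at 482 ± 80.3 against 1235 ± 76.2 CPM, and Rims1, an active zone protein, was lower too (-0.60 ± 0.22). Snap25, a core protein of vesicle fusion, overlapped (0.071 ± 0.19). Gabrb2, a subunit of the GABA-A receptor, had 1102, 1723 and 1581 counts against 756, 676 and 1225 with overlap, and Gabbr1, a subunit of the GABA-B receptor that baclofen binds, was lower without overlap by a small margin (-0.21 ± 0.059). The synthetic enzymes Gad1 and Gad2 overlapped, with log2 differences of -0.58 ± 0.32 and -0.21 ± 0.36. In BAC versus DNP, edgeR's adjusted p was 0.998 for each of C3, Aif1, Syt1, Gabrb2 and Gabbr1.

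Of 14 meningeal fibroblast genes, 13 had a positive fold change in BAC versus DNP, as had 48.1% of all genes compared. An unadjusted edgeR p under 0.05 was found for 9 of the 14 (2.37% of all genes), and likewise for 9 with the Hoxb5 class as a term (3.99% of all genes). Between the classes, 2 of the 14 were without overlap, beside 42.2% of all genes in either direction. Each class mixes DNP and BAC mice, so a gene higher in every BAC than in every DNP library must overlap between the classes. The low number without overlap is therefore not independent of the BAC versus DNP difference, and the part of the class was not tested. Slc47a1, a transporter of these cells that DESeq2 called, had 15, 7 and 7 counts in DNP 1, DNP 2 and DNP 3 and 89, 36 and 57 in BAC 1, BAC 2 and BAC 3. None of the 14 passed the adjusted threshold in edgeR.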
